A study of Rattus norvegicus with 16 samples.

Results

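The potassium channel genes described here were 31 listed genes that encode pore-forming, accessory or silent potassium channel subunits. They were found through the transcript accession of each array probe. All 31 had at least 1 probe, 47 probes in all, among 30367 probes on the array. Of the listed genes, 28 are treated as neuronal channels and 3, Kcnn4, Kcna3 and Kcnj2, as microglial channels. That split is background knowledge and was not read from these samples. A gene was tested if its probe was well above the local background on at least 5 of 16 arrays, and 30 of the 31 were. The untested gene was Kcnj2, whose probe was well above background on 1 array. The 30 genes stand among 20471 tested genes and unnamed transcripts, of which 12610 carry a symbol.

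RNA from rat brain was measured on 16 single-colour Agilent arrays, 1 per sample, from rats aged 8 weeks. The 5 control samples came from normal rats without middle cerebral artery occlusion (MCAo), an operation that blocks a large brain artery and is used to model stroke. The 5 saline samples came from MCAo rats treated with saline, and the 6 IV-hUMSC samples from MCAo rats infused with 1000000 human umbilical mesenchymal stem cells (hUMSC) through a vein (IV). Tissue was taken 72 hours after occlusion. The labels name no strain, sex, hemisphere, brain region, infusion time or sham operation, so surgery and occlusion cannot be told apart. They number the samples and do not say that each came from a separate rat, so the p-values measure the spread between these samples. The saline samples carry the numbers 1 to 5 and the IV-hUMSC samples 5 to 10. Each array fell on 1 of 2 slides, with 3 control, 3 saline and 2 IV-hUMSC arrays on slide 1 and 2, 2 and 4 on slide 2. The tissue label was checked against markers: all 14 measured neuron, 7 astrocyte and 7 oligodendrocyte markers were well above background on every array. The comparisons below share arrays, so they are not independent of each other.

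Potassium channels set the resting potential of a neuron, end its action potentials and limit how often it fires. Voltage-gated subunits assemble into tetramers with accessory beta subunits, inward rectifiers and two-pore leak channels hold the membrane near rest, and calcium- or sodium-activated channels open after activity. Microglia and infiltrating immune cells carry a smaller set, including the calcium-activated channel of Kcnn4, the voltage-gated channel of Kcna3 and the inward rectifier of Kcnj2, which sustain the driving force for calcium entry when the cells are activated.

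The promoter windows below are shown because they set a pair of channels listed as microglial beside a pair listed as neuronal. RefSeq (build GRCr8) gave 25 windows for 22 of the 31 genes, each running from 250 bases before to 50 bases after a gene's start. Capitals mark the Sp1 motif GGGCGG and the PU.1 motif GAGGAAG on either strand. Kcnj2 lies on the plus strand at chr10:96559975-96560274, Kcna3 on the plus strand at chr2:197320074-197320373, Kcna2 on the plus strand at chr2:197393280-197393579, and Kcnj4 on the minus strand at chr7:112954498-112954797.
Kcnj2: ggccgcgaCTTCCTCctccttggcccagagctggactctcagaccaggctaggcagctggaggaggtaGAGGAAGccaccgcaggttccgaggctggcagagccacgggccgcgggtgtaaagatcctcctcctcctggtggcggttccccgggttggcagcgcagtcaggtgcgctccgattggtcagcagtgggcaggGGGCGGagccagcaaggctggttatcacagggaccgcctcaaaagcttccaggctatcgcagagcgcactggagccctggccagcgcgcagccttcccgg
Kcna3: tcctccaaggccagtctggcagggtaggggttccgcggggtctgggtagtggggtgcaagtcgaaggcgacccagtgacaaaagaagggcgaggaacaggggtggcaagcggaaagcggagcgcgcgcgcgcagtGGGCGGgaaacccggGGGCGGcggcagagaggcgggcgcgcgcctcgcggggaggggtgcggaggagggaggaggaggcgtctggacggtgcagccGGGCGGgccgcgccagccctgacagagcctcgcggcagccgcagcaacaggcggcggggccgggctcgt
Kcna2: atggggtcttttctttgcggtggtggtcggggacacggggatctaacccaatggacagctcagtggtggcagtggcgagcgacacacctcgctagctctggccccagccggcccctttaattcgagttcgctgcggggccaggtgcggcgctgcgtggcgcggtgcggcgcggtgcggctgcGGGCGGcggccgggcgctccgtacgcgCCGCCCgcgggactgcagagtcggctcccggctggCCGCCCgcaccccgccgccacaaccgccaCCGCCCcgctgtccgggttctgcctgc
Kcnj4: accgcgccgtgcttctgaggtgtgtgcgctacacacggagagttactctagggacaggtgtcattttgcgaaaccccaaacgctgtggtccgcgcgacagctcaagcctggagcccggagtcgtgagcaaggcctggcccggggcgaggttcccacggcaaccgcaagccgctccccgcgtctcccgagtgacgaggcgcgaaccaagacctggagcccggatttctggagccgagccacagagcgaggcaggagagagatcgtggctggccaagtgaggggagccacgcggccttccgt

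PU.1 is a factor of myeloid cells, and its motif stood in the Kcnj2 window 2 times and in none of the windows of Kcna3, Kcna2 and Kcnj4. The motif was not confined to a channel listed as microglial. It also stood 2 times in the window of Kcna6 and once each in windows of Kcnd3 and Kcnk2, all listed as neuronal. The Sp1 motif stood 3 times in the Kcna3 window, 4 times in that of Kcna2, once in that of Kcnj2 and not in that of Kcnj4. Over all 25 windows, 12 (48.0%) held the Sp1 motif, against 33.1% of 33469 rat promoter windows of the same length, and 4 (16%) held the PU.1 motif, against 12.4%. None held the AP-1 motif TGANTCA (7.33% of all windows), the cyclic AMP response element TGACGTCA (1.83%), the left part of the RE1 silencer site TCAGCACC (1.48%) or the TATA box TATAAA (14.2%). The Sp1 and PU.1 motifs were searched on both strands, as were the others, and a match is only a match of letters. The median GC content of the listed genes' windows was 66.0% against 51.7% over all windows, with 23 CpG pairs against 7. Kcnn4 is not among these windows.

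Levels are given as log2 processed signal minus the 75th percentile of the array, so 1 unit is a factor of 2, and levels of different genes are not set against each other. Changes are differences of group means with the standard error (SE) of a limma model over all 16 arrays, and a change was called at a Benjamini-Hochberg adjusted p under 0.05 over all tested genes. Replicate errors of levels are standard deviations (SD).

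The channel genes moved in opposite directions after occlusion. Kcnn4 rose in the saline arrays by 3.40 on the log2 scale, or by 2.24 with another background correction (normexp), while 13 of the 28 neuronal channels fell and no neuronal channel rose. Over all tested genes 12.8% fell and 14.3% rose in that comparison. In the IV-hUMSC arrays the same 2 directions were seen against control, with Kcnn4 higher and 28 of the 30 tested genes lower: 27 of 28 neuronal channels and Kcna3. Over all tested genes 37.3% fell there and 24.7% rose. Between the occluded groups, IV-hUMSC arrays had lower levels than saline arrays in 10 of the 30 genes, against 7.98% of all tested genes. That count was 0 without 2 saline arrays described below, 0 in a fit of only the 2 occluded groups and 0 within slide 2.

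Kcnn4 encodes the intermediate-conductance calcium-activated channel of microglia, lymphocytes and red blood cells. Its level in the 5 control arrays was -5.74, -5.59, -5.80, -5.85 and -5.73. In saline arrays 1 to 5 it was -2.63, -1.66, -1.42, -1.96 and -4.05, and in the 6 IV-hUMSC arrays it ran from -2.03 through a median of -1.38 to -0.60. Every occluded array lay above every control array, saline array 5 was the lowest of them, and the occluded groups overlapped. The mean level was -5.74 ± 0.10 (SD, n = 5) in control, -2.34 ± 1.06 (SD, n = 5) in saline and -1.29 ± 0.54 (SD, n = 6) in IV-hUMSC. Kcnn4 rose by 3.40 ± 0.40 (SE) from control to saline, a 10.6-fold change (limma adjusted p = 0.00022). From control to IV-hUMSC it rose by 4.45 ± 0.38, or 21.9-fold (limma adjusted p = 2.27e-06). The difference of IV-hUMSC from saline, 1.05 ± 0.38 with a 95% interval of 0.24 to 1.86, was not called (limma adjusted p = 0.0712). Without saline arrays 1 and 5 that difference was 0.39, and with the slide as a block it was 1.21 and called.

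The Kcnn4 change held on both probes and both slides in direction, and its size moved with the background correction. A further Kcnn4 probe changed by 3.10, 0.88 and 3.98 in the saline minus control, IV-hUMSC minus saline and IV-hUMSC minus control comparisons. Within slide 1 the changes were 3.81, 0.99 and 4.80, and within slide 2 they were 2.78, 1.52 and 4.31. The slide 2 rise in saline, with 2 arrays a group, was not called. With normexp background correction, which here adds an offset of 50 to every signal before log2, the 3 changes were 2.24, 0.83 and 3.07.

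Kcna3 encodes the voltage-gated channel Kv1.3 of T cells and activated microglia, and it did not follow Kcnn4. Its control levels were -4.58, -4.70, -4.28, -4.80 and -4.82, and its saline levels were -4.80, -4.80, -4.77, -4.79 and -5.03. The IV-hUMSC levels ran from -5.57 through a median of -5.24 to -5.00. Control and saline overlapped, and every IV-hUMSC array lay below every control array. The saline change of -0.20 ± 0.12 was not called (limma adjusted p = 0.220). Kcna3 fell by 0.41 ± 0.11 from saline to IV-hUMSC (adjusted p = 0.0346) and by 0.61 ± 0.11 from control to IV-hUMSC (adjusted p = 0.000335). Kcnj2, the inward rectifier Kir2.1, had levels of -8.70 to -6.57 over all arrays and was well above background only in IV-hUMSC array 10, so it has no test. Of the 2 channels listed as microglial that were tested, Kcnn4 rose and Kcna3 did not.

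**Figure D1:**
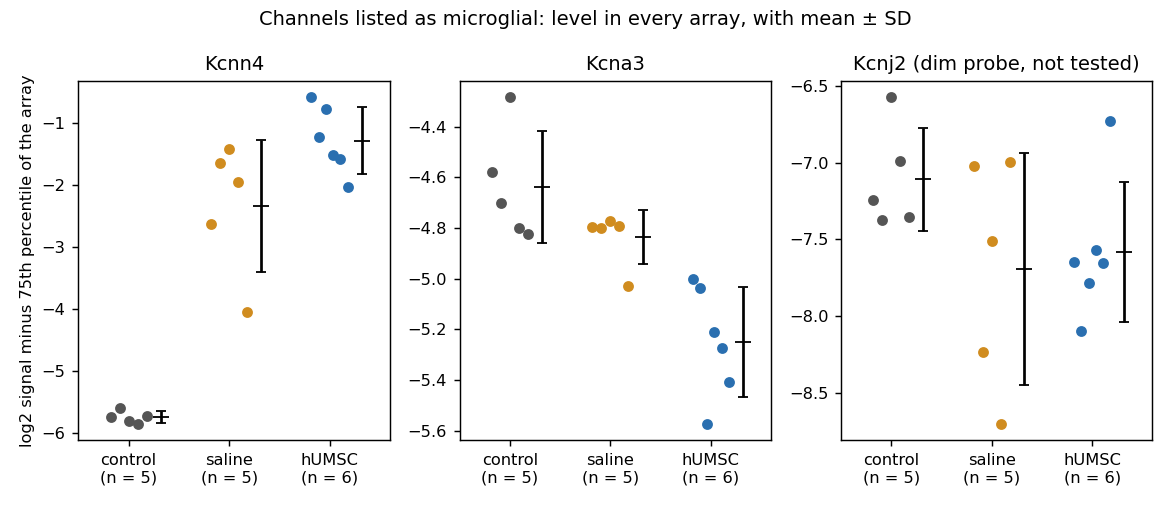
Level of Kcnn4, Kcna3 and Kcnj2 in every array (log2 processed signal minus the 75th percentile of the array; each panel has its own scale), with 1 point per array and a black mark and bar for the mean ± SD of 5 control, 5 saline and 6 IV-hUMSC arrays. Kcnn4 lies at -5.85 to -5.59 in control and at -4.05 to -0.60 in all occluded arrays, Kcna3 is lowest in IV-hUMSC at -5.57 to -5.00, and Kcnj2 is at the dim end of the array.

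The mean level of a list of 15 microglia and macrophage markers moved with Kcnn4 across arrays, though not every marker did. In saline 13 of 15 rose against control and in IV-hUMSC 13 of 15 rose, with median changes of 1.95 and 2.62 over the 15. The microglial markers Cx3cr1 (0.14 ± 0.17) and Tmem119 (0.15 ± 0.18) were the ones not called in saline. Between the occluded groups 3 of 15 were called higher in IV-hUMSC, and the change was negative in 3. All 15 were well above background on every array. Relative to the control mean, the list's mean level was -0.20 to 0.14 in control, 1.09 to 2.90 in saline and 2.74 to 3.32 in IV-hUMSC. The lowest of the occluded arrays was saline array 5 at 1.09, followed by saline array 1 at 1.94, and the same 2 arrays had the smallest Kcnn4 changes, 1.69 and 3.11. Proliferation markers rose in 6 of 6 genes in both occluded groups, with array means of 1.35 to 3.58 in saline and 3.12 to 4.23 in IV-hUMSC. Of 9 T cell markers, 4 were well above background on all control arrays, and 1 of 8 tested rose in saline and 5 of 8 in IV-hUMSC against control. The 1 that rose in saline was Cd4, by 0.83 ± 0.18, and no other T cell marker was called there. Cd2 was well above background on 1 control, 1 saline and 4 IV-hUMSC arrays, so it entered the test mainly through the IV-hUMSC arrays. Their array means relative to control were -0.14 to 0.18 in control, -0.10 to 0.68 in saline and 0.33 to 1.097 in IV-hUMSC. Of 5 matched neutrophil markers 3 were tested, of which 1 rose in saline and 3 in IV-hUMSC against control. The part of these cells in the Kcnn4 change was not tested. In bulk tissue, more or fewer cells of a type and more or less RNA per cell cannot be told apart.

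Saline against normal control asks which channels differed 72 hours after occlusion. Of the 30 tested channel genes, 1 (Kcnn4) was called higher and 13 were called lower, against a background of 14.3% of all tested genes called higher and 12.8% called lower. The change was negative in 28 of the 30 genes, with a median of -0.39, where the median over all tested genes was -0.04. In 7 of the 30 genes, Kcna4, Kcna5, Kcnab1, Kcnh1, Kcnj4, Kcnk2 and Kcnt1, every saline array lay below every control array, against 8.45% of all tested genes. Of the 30 genes, Kcnn4 alone changed by as much as 2-fold.

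Most of the fall came from 3 of the 5 saline arrays. Saline arrays 2, 3 and 4 were each below every control array in 26 of the 28 neuronal channels. Saline array 1 was below them in 17 and saline array 5 in 9, and saline array 5 was above every control array in 8. The count of 13 lower genes became 25 without saline arrays 1 and 5, 22 without saline array 5, and 4 without saline array 2, 3 or 4. It was 5 without control array 1, 2 or 4 and 6 without control array 3 or 5. Within slide 1 the count was 9 and within slide 2 it was 0, with medians of -0.44 and -0.31 over the 30 genes, and with the slide as a block it was 16. At an unadjusted p under 0.05 in limma, 2 genes were lower and 2 higher within slide 2.

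**Figure D2:**
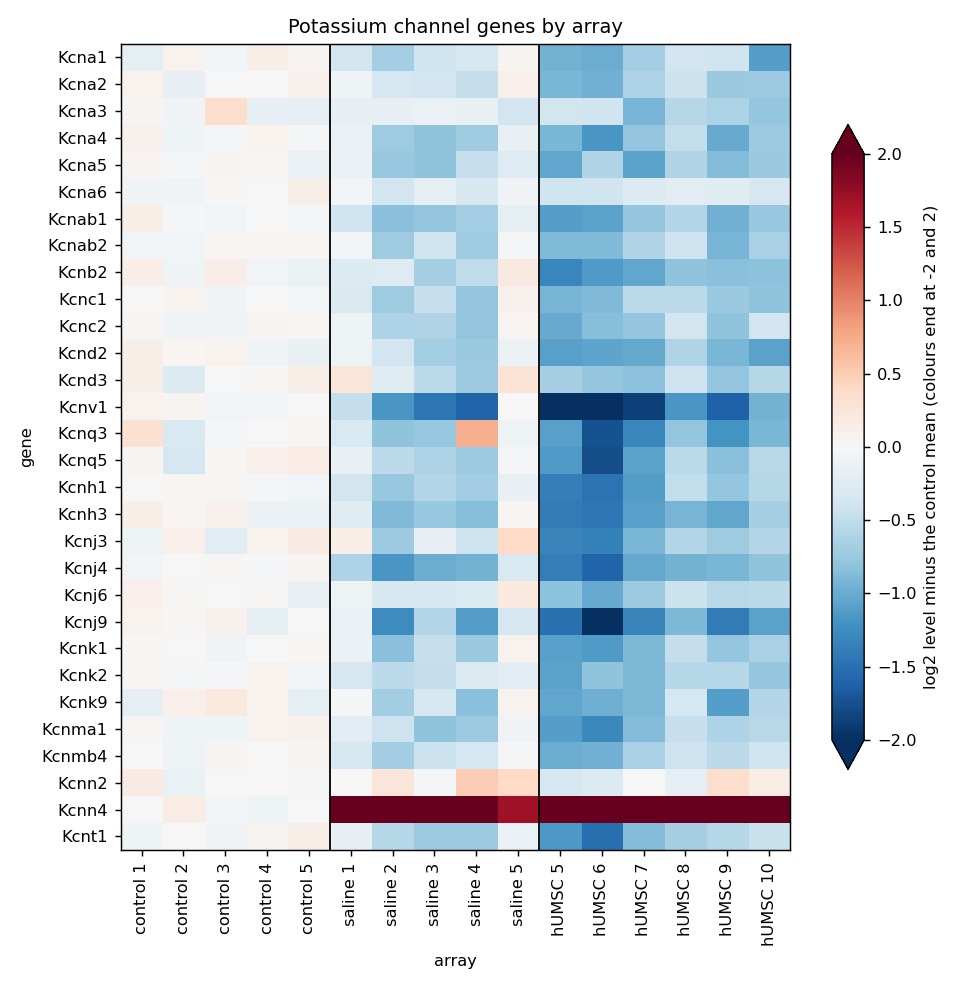
Log2 level minus the control mean for the 30 tested channel genes (rows, in family order) in the 16 arrays (columns; black lines separate control, saline and IV-hUMSC), with blue below and red above the control mean and colours ending at -2 and 2. Kcnn4 is red in every occluded array, saline arrays 2, 3 and 4 and the IV-hUMSC arrays are blue in nearly every other row, and saline arrays 1 and 5 are pale.

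Among the Kv1 pore subunits, which shape action potentials in axons and terminals, 3 of 6 fell in saline. Kcna4 (Kv1.4), a rapidly inactivating subunit, fell by 0.50 ± 0.14, from control levels of -0.95 to -0.78 to saline levels of -1.67 to -1.0. Kcna5 (Kv1.5), a delayed rectifier, fell by 0.48 ± 0.13, and Kcna6 (Kv1.6) fell by 0.20 ± 0.07. The axonal subunits Kcna1 (Kv1.1) and Kcna2 (Kv1.2) differed by -0.34 ± 0.15 and -0.23 ± 0.12 and were not called. All 6 Kv1 subunits fell from control to IV-hUMSC, by 0.31 ± 0.07 (Kcna6) to 0.85 ± 0.14 (Kcna4). Kcna2 and Kcna3, whose promoters are shown above, fell between saline and IV-hUMSC, Kcna2 by 0.50 ± 0.11 (limma adjusted p = 0.0204).

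The beta subunits bind Kv1 channels from the cytoplasm, and Kcnab1 confers fast inactivation. Kcnab1 levels were 2.25, 2.09, 2.08, 2.15 and 2.10 in control and 1.74, 1.30, 1.34, 1.45 and 1.94 in saline, and ran from 1.03 through 1.26 to 1.55 in IV-hUMSC. All occluded arrays lay below all controls, and saline arrays 1 and 5 were the nearest to them. Kcnab1 fell by 0.58 ± 0.12 in saline (limma adjusted p = 0.00501) and by 0.88 ± 0.12 in IV-hUMSC (adjusted p = 3.3e-05). Kcnab2, the more widely expressed beta subunit, fell by 0.38 ± 0.14 and 0.73 ± 0.13 in the same comparisons. Neither differed between the occluded groups at the threshold, with changes of -0.30 ± 0.12 and -0.34 ± 0.13.

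The Kv2, Kv3 and Kv4 subunits and the silent subunit Kcnv1 gave 3 calls of 6 in saline. Kcnv1 (Kv8.1) forms no channel alone and modifies Kv2 channels. Its levels were 1.67, 1.64, 1.54, 1.55 and 1.58 in control and 1.12, 0.43, 0.15, 0.00 and 1.59 in saline, and ran from -0.77 through -0.15 to 0.65 in IV-hUMSC. Saline array 5 stood inside the control range, and the IV-hUMSC arrays were all below it. Kcnv1 fell by 0.94 ± 0.30 in saline (adjusted p = 0.0322) and by 1.68 ± 0.29, or 3.20-fold, in IV-hUMSC against control (adjusted p = 0.000179), the largest fall among the 30 tested genes. The Kv3 subunits Kcnc1 and Kcnc2 serve fast-spiking neurons. Kcnc1 fell by 0.43 ± 0.14 in saline, while Kcnc2 differed by -0.41 ± 0.16 and was not called (adjusted p = 0.0625). Kcnd2 (Kv4.2), the dendritic A-type subunit, fell in all 3 comparisons, by 0.40 ± 0.13, 0.56 ± 0.12 and 0.96 ± 0.12. Kcnd3 (Kv4.3) fell in IV-hUMSC against control by 0.67 ± 0.16, with -0.19 ± 0.17 in saline.

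Kcnb2 (Kv2.2) is a delayed rectifier, and it fell against both control and saline in the IV-hUMSC arrays. Its saline levels were -1.43, -1.41, -1.82, -1.67 and -0.98, against control levels of -1.28 to -1.02, and the saline change of -0.31 ± 0.14 was not called. The IV-hUMSC levels ran from -2.45 through -2.09 to -1.96, below every saline array. Kcnb2 fell by 0.68 ± 0.13 from saline to IV-hUMSC (limma adjusted p = 0.0140) and by 0.99 ± 0.13 from control to IV-hUMSC (adjusted p = 3.18e-05).

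Kcnq3 and Kcnq5 carry the M-current, which damps repetitive firing, and Kcnh1 and Kcnh3 belong to the ether-à-go-go family. Kcnh3, a forebrain channel, fell by 0.54 ± 0.18 in saline, by 0.55 ± 0.17 from saline to IV-hUMSC and by 1.09 ± 0.17 from control to IV-hUMSC. Kcnh1 fell by 0.51 ± 0.18 in saline and by 0.97 ± 0.17 in IV-hUMSC against control. Kcnq3 levels were 0.43, -0.06, -0.01, 1.47 and 0.64 in saline, against 0.44 to 1.04 in control and -1.0 to -0.06 in IV-hUMSC. Saline array 4 was the highest of all 16 arrays for this probe. On a further Kcnq3 probe, the same array had a level of -2.59 where the other 4 saline arrays had -2.66 to -1.98, so the high value was seen on 1 probe. Kcnq3 fell by 1.17 ± 0.24 in IV-hUMSC against control on the first probe and differed by -1.17 on the further one. The probes were further apart in the other comparisons: saline minus control was -0.25 ± 0.25 on the first and -0.55 ± 0.18 on the further probe, and IV-hUMSC minus saline was -0.92 ± 0.24 and -0.61 ± 0.17. Kcnq5 fell by 0.99 ± 0.20 in IV-hUMSC against control, and its IV-hUMSC minus saline difference of -0.58 ± 0.20 was not called.

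The inward rectifiers included Kcnj4, with the lowest adjusted p of the neuronal channels in saline. Kcnj4 (Kir2.3) stabilises the resting potential of forebrain neurons, and its promoter is shown above. Its levels were -0.05, 0.01, 0.03, -0.02 and 0.06 in control and -0.61, -1.16, -0.98, -0.93 and -0.30 in saline, and ran from -1.59 through -0.98 to -0.80 in IV-hUMSC. All occluded arrays lay below the narrow control range, and the saline and IV-hUMSC arrays overlapped. Kcnj4 fell by 0.80 ± 0.16 in saline (adjusted p = 0.00387) and by 1.11 ± 0.16 in IV-hUMSC (adjusted p = 4.3e-05), with -0.31 ± 0.16 between the occluded groups (adjusted p = 0.163).

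Kcnj3, Kcnj6 and Kcnj9 encode the GIRK subunits, which open when inhibitory G protein-coupled receptors are active. Kcnj9 (GIRK3) levels were -0.64, -0.69, -0.62, -0.89 and -0.71 in control and -0.83, -1.97, -1.29, -1.81 and -1.05 in saline, and ran from -2.84 through -2.07 to -1.60 in IV-hUMSC. Saline array 1 overlapped the controls, and no IV-hUMSC array did. Kcnj9 fell by 0.68 ± 0.23 in saline, by 0.71 ± 0.22 from saline to IV-hUMSC and by 1.39 ± 0.22 from control to IV-hUMSC. Kcnj3 (GIRK1) and Kcnj6 (GIRK2) were not called in saline, at -0.15 ± 0.20 and -0.17 ± 0.12, and both fell from saline to IV-hUMSC, by 0.76 ± 0.19 (adjusted p = 0.0289) and 0.51 ± 0.11 (adjusted p = 0.0183). For Kcnj6, the IV-hUMSC levels of -2.84 to -2.27 lay below all saline levels of -2.16 to -1.63.

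Two-pore channels carry the leak current at rest, and Kcnk2 was the member called in all 3 comparisons whose groups never overlapped. Kcnk2 (TREK-1) is opened by stretch, lipids and acidification inside the cell. Its levels were 1.83, 1.79, 1.78, 1.86 and 1.75 in control and 1.47, 1.27, 1.33, 1.53 and 1.59 in saline, and ran from 0.73 through 1.01 to 1.23 in IV-hUMSC. Control, saline and IV-hUMSC followed each other downwards. Kcnk2 fell by 0.37 ± 0.09 in saline (adjusted p = 0.0113), by 0.42 ± 0.09 from saline to IV-hUMSC (adjusted p = 0.0167) and by 0.78 ± 0.09 from control to IV-hUMSC. Kcnk1 (TWIK-1) and Kcnk9 (TASK-3) fell in IV-hUMSC against control, by 0.84 ± 0.16 and 0.82 ± 0.17, and were not called in saline, at -0.42 ± 0.16 and -0.37 ± 0.18. The Kcnk9 probe was not well above background on IV-hUMSC array 9.

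Among the channels opened by calcium or sodium, the neuronal members gave no call in saline. Kcnma1, the pore of the large-conductance BK channel, differed by -0.45 ± 0.16 (adjusted p = 0.0553), and its brain beta subunit Kcnmb4 by -0.37 ± 0.13 (adjusted p = 0.0501). Kcnt1 (Slack), opened by sodium, differed by -0.47 ± 0.18 (adjusted p = 0.0645), with saline levels of 0.10 to 0.69 all below control levels of 0.74 to 0.95. All 3 fell in IV-hUMSC against control, by 0.81 ± 0.16, 0.66 ± 0.13 and 0.87 ± 0.17. Kcnn2, the small-conductance SK2 channel of the afterhyperpolarisation, was the neuronal channel with no call in any comparison. Its levels overlapped between groups, at -3.57 to -3.27 in control, -3.47 to -2.93 in saline and -3.79 to -3.08 in IV-hUMSC, and the IV-hUMSC minus control difference was -0.05 ± 0.13 with a 95% interval of -0.33 to 0.22.

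**Figure D3:**
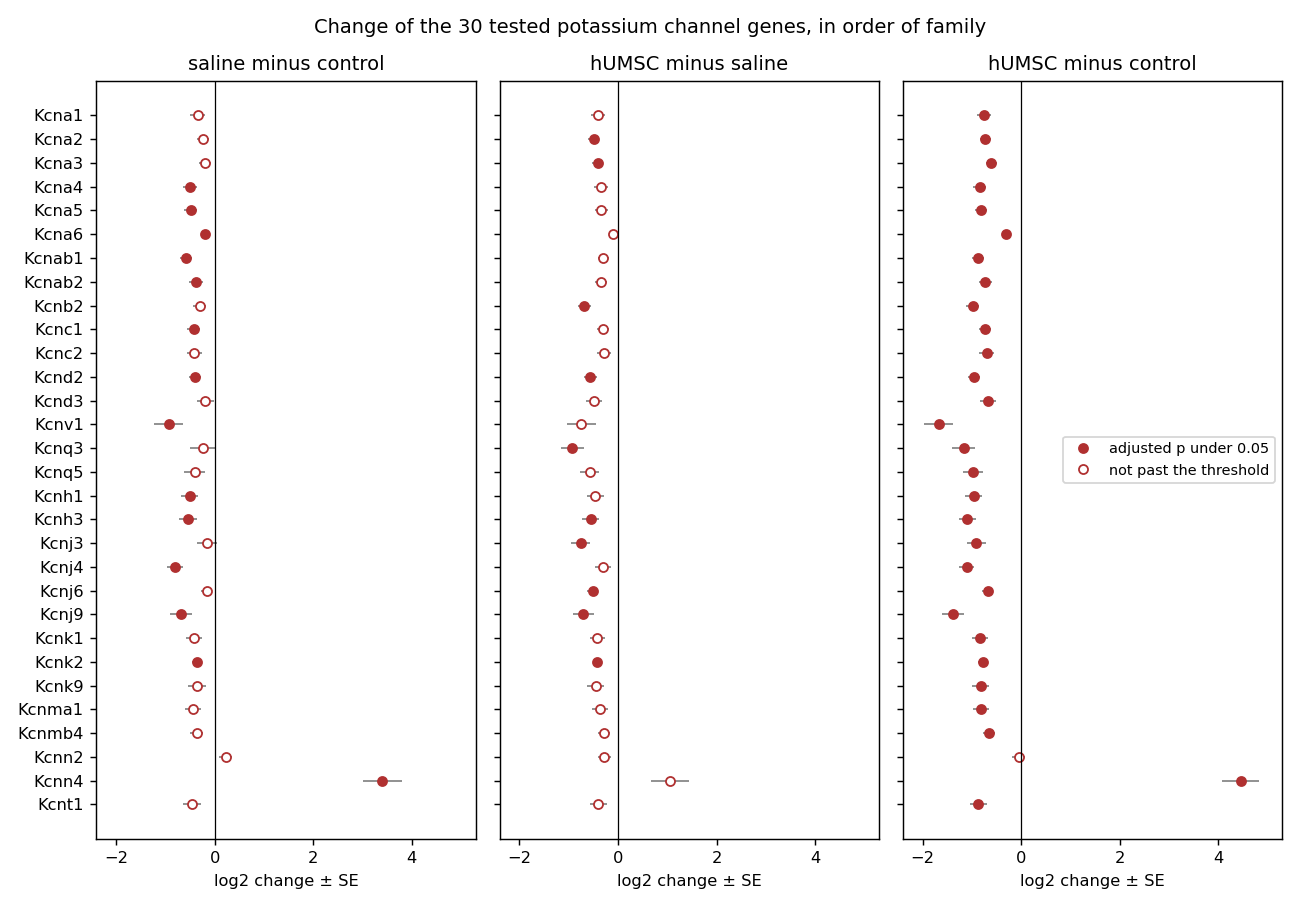
Log2 change ± SE (x axis) of the 30 tested channel genes (y axis, in family order) in saline minus control, IV-hUMSC minus saline and IV-hUMSC minus control, with filled points at a limma adjusted p under 0.05 and open points for genes not past it. Kcnn4 stands to the right at 3.40, 1.05 and 4.45, and in IV-hUMSC minus control every other gene but Kcnn2 is filled and left of 0.

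IV-hUMSC against saline asks what differed in occluded brains that received the cells. In this comparison 10 of the 30 tested genes fell: Kcna2, Kcna3, Kcnb2, Kcnd2, Kcnq3, Kcnh3, Kcnj3, Kcnj6, Kcnj9 and Kcnk2. Over all tested genes 7.98% were called lower and 4.82% higher, and limma called no channel gene higher, where Kcnn4 was the 1 gene higher at an unadjusted p under 0.05. The change was negative in 29 of the 30 genes with a median of -0.41, against -0.07 over all tested genes. The 10 falls ran from 0.41 ± 0.11 (Kcna3) to 0.92 ± 0.24 (Kcnq3), and the Kcnq3 value was -0.61 on its further probe. The next in size was Kcnj3, at 0.76 ± 0.19. In Kcnb2, Kcnj6 and Kcnk2 the groups did not overlap, against 2.97% of all tested genes lower without overlap.

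This comparison rested on few arrays. Without saline arrays 1 and 5 limma called 0 genes lower, the median change was -0.23, and 8 genes were lower at an unadjusted p under 0.05. A fit of only the 2 occluded groups also called 0, with 19 at an unadjusted p under 0.05, and that fit leaves out the controls and their smaller spread. The count was 1 without saline array 1, 2 without saline array 5, 17 without saline array 2 or 4, 6 without IV-hUMSC array 5 or 6, 5 without IV-hUMSC array 7 and 20 without IV-hUMSC array 8. With the slide as a block it was 24, within slide 1 it was 8 and within slide 2 it was 0, where 11 were lower at an unadjusted p under 0.05. The median change was -0.60 within slide 1 and -0.38 within slide 2.

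IV-hUMSC against normal control sets the infused occluded brains beside intact ones. Of the 30 tested genes 28 fell and 1, Kcnn4, rose, where 37.3% of all tested genes were called lower and 24.7% higher. In all 28 genes that fell, every IV-hUMSC array lay below every control array, against 26.9% of all tested genes. The median change of the 30 genes was -0.82, against -0.13 over all tested genes. The falls of Kcnv1, Kcnj9, Kcnq3, Kcnj4 and Kcnh3 reached 2-fold. Each of the 28 was called under every alternative other than the slide 2 arrays alone, where 22 were called, except Kcnk9, which left the test when its probe had to be well above background on all arrays. Within slide 1 the count was 28.

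Neuron markers fell alongside the neuronal channels. All 14 measured markers were well above background on every array, 6 of 14 fell in saline and 13 of 14 in IV-hUMSC against control, with median changes of -0.38 and -0.67. Between the occluded groups 5 of 14 fell, with a median of -0.36. Snap25, a synaptic vesicle fusion protein, fell by 0.49 ± 0.16 in saline and by 0.98 ± 0.16 in IV-hUMSC against control, and Syn1 by 0.59 ± 0.14 and 0.87 ± 0.13. Relative to the control mean, the mean of the 28 neuronal channels was -0.05 to 0.04 in control, -0.63 to -0.01 in saline and -1.16 to -0.56 in IV-hUMSC. The marker mean was -0.03 to 0.03, -0.59 to -0.07 and -0.89 to -0.51 in the same groups. The channel mean minus the marker mean was -0.07 to 0.06 in control, -0.12 to 0.06 in saline and -0.31 to -0.03 in IV-hUMSC. Array by array, the channels and the neuron markers moved nearly equally in saline, and in all 6 IV-hUMSC arrays the channel mean was the lower. The difference in IV-hUMSC array 8, at -0.03, lay inside the control range, and that in array 7, at -0.07, inside the saline range.

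The 9 markers of striatal projection neurons, which lie in the territory of the occluded artery, included Gpr6. Its probe was well above background on 4 control, 1 saline and 0 IV-hUMSC arrays, so it entered the test mainly through the control arrays. In saline 8 of 9 fell, with a median of -1.13, and in IV-hUMSC 9 of 9 fell against control, with a median of -1.77. The 9 include Gpr6, whose fall sets control against IV-hUMSC signals not well above background. Of 8 interneuron markers 3 fell in saline and 7 in IV-hUMSC against control, with medians of -0.24 and -0.60. The part of neuron content in the channel changes was not tested.

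**Figure D4:**
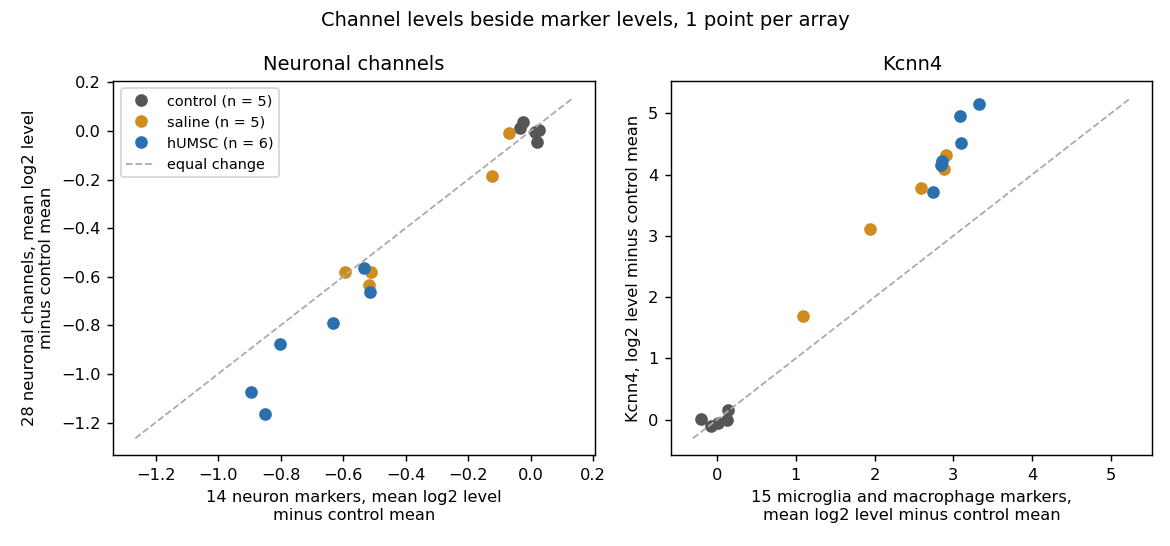
Each point is 1 array, and both axes give log2 level minus the control mean: the mean of 28 neuronal channels against the mean of 14 neuron markers (left), and Kcnn4 against the mean of 15 microglia and macrophage markers (right), with a dashed line where both changed equally. The neuronal channels lie near the line in saline and below it in the 6 IV-hUMSC arrays, at -1.16 to -0.56, with IV-hUMSC array 8 close to the line. Kcnn4 lies above the line in every occluded array. The marker value is a mean: single markers changed by 0.14 to 5.15 in saline minus control, where Kcnn4 changed by 3.40.

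Another 66 potassium channel genes were listed for comparison, and 57 were tested. In saline 4 rose and 16 fell, with a median change of -0.31 over the 57. In IV-hUMSC minus saline 2 rose and 11 fell (median -0.27), and in IV-hUMSC minus control 8 rose and 36 fell (median -0.60). Over all tested genes the shares called higher and lower were 14.3% and 12.8% in saline minus control. They were 4.82% and 7.98% in IV-hUMSC minus saline, and 24.7% and 37.3% in IV-hUMSC minus control. In each comparison the 57 thus held a larger share of falls. Their share of rises was smaller in the comparisons with control. In IV-hUMSC minus saline, with 2 rises of 57, it was near the share over all tested genes. Among the called genes, the largest falls in saline were those of Kcnh4 (1.17 ± 0.29), Kcnip2 (0.90 ± 0.19), Kcnk4 (0.88 ± 0.25) and Kcnf1 (0.79 ± 0.23). Kcnip2 encodes KChIP2, a calcium-binding partner of Kv4 channels, and Kcnk4 the mechanosensitive leak channel TRAAK. Kcnh4, Kcns1, Kcnk4 and Kcnf1 had the largest called falls in IV-hUMSC against control, by 1.90 ± 0.28, 1.60 ± 0.31, 1.46 ± 0.24 and 1.34 ± 0.22. Kcnh7 (0.73 ± 0.17), Kcnj10 (0.67 ± 0.13), Kcnt2 (0.62 ± 0.18) and Kcnip4 (0.55 ± 0.16) had the largest called falls from saline to IV-hUMSC. Differences that were not called reached -0.83 ± 0.31 (Kcns1) and -0.80 ± 0.26 (Kcnh5) in that comparison, both named after their values were seen. Kcnj10 encodes Kir4.1, the potassium-buffering channel of astrocytes.

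Of the 57 other channels, 4 rose in saline and 8 in IV-hUMSC against control, and 2 rose from saline to IV-hUMSC. Kcnk13 (THIK-1), the two-pore channel of microglia, rose by 0.39 ± 0.09 in saline, by 0.33 ± 0.09 from saline to IV-hUMSC and by 0.72 ± 0.09 from control to IV-hUMSC. Kcnk6 (TWIK-2), a two-pore channel that macrophages express, rose by 0.94 ± 0.24 in saline and by 1.33 ± 0.23 in IV-hUMSC against control. Kcnmb1, the BK beta subunit of smooth muscle, rose by 0.60 ± 0.20 and 0.93 ± 0.19, and its probe was well above background on 2 control, 3 saline and 4 IV-hUMSC arrays, so these sizes rest in part on signals not well above background. Kcnj5 (GIRK4) rose by 0.51 ± 0.14 in saline. Kcnj8 (Kir6.1), the ATP-sensitive channel of pericytes and vascular smooth muscle, fell by 0.48 ± 0.15 from control to saline and rose by 1.05 ± 0.14 from saline to IV-hUMSC, both without overlap. Against control it rose by 0.57 ± 0.14 in IV-hUMSC. Of the 7 pericyte and smooth muscle markers 2 rose from saline to IV-hUMSC. Kcne3, an accessory subunit, stood above background by the scanner's mark on 0 of 5 control and 5 of 6 IV-hUMSC arrays and was at least 2.57-fold higher in IV-hUMSC (limma adjusted p = 0.000555). Its probe entered the test through the occluded arrays, so that p sets IV-hUMSC against control signals not well above background. The bound sets the IV-hUMSC mean against the lowest signal well above background on each control array, or the probe's own signal where higher.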

How the data were processed

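Per the file headers, Agilent Feature Extraction 11.0.1.1 made the processed signal, an intensity from which the local background was subtracted and spatial trends removed array by array. Arrays were not scaled to each other in the deposited intensity values. The well-above-background, outlier and saturation marks are flags with no unit, per the file headers. The series' deposited table of values is also an intensity and equals the mean processed signal over a probe's spots. Each array has 62976 spots, and 72.3% to 77.6% of probes were well above background. No spot of a listed gene was saturated. Precision is limited by how many arrays there are.

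Outlier spots were dropped, log2 signals averaged per probe and the 75th percentile of non-control probes subtracted. Accessions were matched to RefSeq symbols: 18355 of 30367 probes matched 15443 symbols. The tested probe with the highest mean stood for its gene, and transcripts without a symbol were kept by accession. Of the listed genes' further probes, 16 were tested, and apart from a Kcna6 probe in IV-hUMSC minus saline all changed in the direction of the gene's first probe. Sizes could differ. Kcnma1 changed by -0.45 on its first probe and by -0.19 and -0.49 on further ones in saline minus control. Kcnc2 changed by -0.28 on its first probe and by -0.68 on a further one in IV-hUMSC minus saline. Tests were two-sided in limma 3.58.1 (R 4.3.3), with 1 mean per group. Array correlations within a group, across genes, were 0.978 to 0.996. No arrays are labelled as repeats of 1 sample, so these values cannot tell whether any 2 arrays share a sample. Named genes are all 31 listed genes, the 4 largest called changes per comparison and direction of the other channels, and up to 2 genes of a marker list. The members, lists and tests were chosen with earlier results of these data known. Per the labels' protocols, a kit for blood RNA and globin removal was used on this brain tissue. Alternatives covered the scaling, background, filter, probe choice, slide, samples in the fit and left-out arrays. The model code was tested on simulated data.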

Additional observations from a re-analysis of the deposited data

Results flagged for a closer look

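In each group of 5 or 6 arrays, the highest and the lowest array of each listed gene were compared with their nearest neighbour by Dixon's ratio of gap to range, over 93 groups. In 4 of them an end array stood apart, where chance gives about 1 in 20. Saline array 5 had a Kcna3 level of -5.03, with the next saline array at -4.80. IV-hUMSC array 8 had a Kcnd2 level of 1.097, above the next at 0.78. Control array 2 had a Kcnq5 level of -3.16, below the next at -2.81. Control array 3 had a Kcnk1 level of 2.53, below the next at 2.61.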

How the results depend on the processing

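No listed gene that was called reversed its direction under any alternative. Of the 28 lower calls in IV-hUMSC minus control, 22 were kept under every alternative that tested them, and 6 were lost within slide 2 alone. Of the 13 lower calls in saline minus control, Kcnab1, Kcnj4 and Kcnk2 were lost only within slide 2. The other 10 were lost under 3 (Kcna5) to 16 (Kcna6) of 23 alternatives. The 10 lower calls in IV-hUMSC minus saline were lost under 3 (Kcnb2) to 15 (Kcnj9) of 23 alternatives. In saline minus control the lower count was 20 with median scaling, 7 with no filter on dim probes, which tests more probes, 0 within slide 2, 4 to 22 with each array left out in turn, and 25 without saline arrays 1 and 5, an alternative chosen after their levels were seen. The higher count in that comparison, 1, was 0 within slide 2. In IV-hUMSC minus saline the lower count was 0 with only the 2 groups in the fit, 24 with the slide as a block, 0 within slide 2, 1 to 20 with each array left out and 0 without saline arrays 1 and 5. The higher count, 0, was 1 (Kcnn4) with the slide as a block and 0 to 1 with each array left out. The cause of these shifts was not tested beyond the fewer arrays or further probes that an alternative itself brings. Other counts stayed within 1.5 times. With the replicate number as a block over control and saline (replicate block), 9 genes were lower and 1 higher. Same-numbered control and saline arrays deviated together only weakly, with correlations of -0.05 to 0.18, and 2 of 5 correlated best with their own number, so the numbers were not taken to pair the samples. IV-hUMSC shares a single number with the other groups, so no such fit was made for it. Normexp was run on the median spot signal, with an offset of 50.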
